A study of Mus musculus with 2 samples.

Results

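The miR-101 family was followed through its genes Mir101a and Mir101b, 2 of the 2202 miRNA genes in each table and 2 of the 433 that were detected, meaning that both libraries reached 2 CPM, where CPM are counts per 1000000 counts in miRNA genes. The pair was taken by gene identifier and chosen by family with its CPM in both libraries already known, so the levels and differences of these genes are given as descriptions with no test. The data are 2 libraries of short RNA, with sizes under 30 stated in the labels, from the hippocampus at an age of 25 days in females of B6CASTF1/J, the first-generation cross of C57BL/6J and CAST/EiJ. The labels call both libraries biological replicates of a single group, with no treatment or mutation, and name the tissue a layer of the hippocampus without saying which layer. Replicate 2 held 4266963 counts in miRNA genes and replicate 1 held 5481053. All values compare 1 library with 1 other library of the same group, so no difference below belongs to a condition.

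A miRNA is cut from a hairpin precursor and guides Argonaute proteins to messenger RNAs, mainly through its seed, bases 2 to 8 counted from the 5′ end. The miR-101 family is known as a repressor of Ezh2, the histone methyltransferase of Polycomb repressive complex 2, and of App, the precursor of amyloid beta. In the developing mouse hippocampus it is known to restrain network excitability, with the chloride importer Nkcc1, encoded by Slc12a2, among its targets. The working strand is the 3p arm, and its sequences are shown because the counts of these genes rest on how few bases separate them. The 3p products below are RefSeq sequences on GRCm38.p6, with the seed in capitals, and miR-101c belongs to another annotated gene of the name, Mir101c.
miR-101a-3p: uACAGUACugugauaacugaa
miR-101b-3p: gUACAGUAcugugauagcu
miR-101c: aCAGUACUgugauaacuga

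The products overlap almost fully and differ in where they begin and end. The annotated miR-101b-3p begins 1 base before miR-101a-3p, so its seed is shifted by 1 base, and miR-101c begins 1 base after it. Counted from the 5′ end of miR-101a-3p, 17 of the 18 bases that miR-101b-3p shares in position were equal, and the single substitution was A16G. The Mir101b hairpin held the same 20 of 21 bases opposite the whole of miR-101a-3p, with A16G again the only difference. All 19 bases of miR-101c were equal to bases within miR-101a-3p. The Mir101c hairpin differed from the whole miR-101a-3p by U1C and A21U.

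The hairpins of both genes are shown with the 5p and the 3p product in capitals, to place the shared stretch. The last line is the GENCODE M21 transcript of Mir101c, with the stretch it shares with Mir101a in capitals.
Mir101a hairpin: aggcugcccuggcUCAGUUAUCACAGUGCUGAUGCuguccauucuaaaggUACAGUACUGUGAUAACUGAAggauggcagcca
Mir101b hairpin: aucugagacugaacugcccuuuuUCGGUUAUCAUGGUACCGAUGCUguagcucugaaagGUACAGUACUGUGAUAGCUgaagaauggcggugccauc
Mir101c transcript: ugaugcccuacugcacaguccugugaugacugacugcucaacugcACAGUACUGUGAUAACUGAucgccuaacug

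The longest identical stretch between the Mir101a and Mir101b hairpins was 20 bases, aaagguacaguacugugaua, and it ends just before the substitution. Over the full hairpins, 69 aligned bases were identical, or 69.7% of the alignment columns, and the 5p arms were equal at 17 of 22 positions. Mir101a and Mir101c shared 19 bases, and Mir101b and Mir101c shared 14. The next longest stretch that another miRNA gene of the tables shares was 13 bases for Mir101a and 11 for Mir101b. The counts leave out reads that match several places, a class that took 46.4% of all reads in replicate 2 and 41.9% in replicate 1. A read of the 3p arm that ends before base 16 cannot separate Mir101a from Mir101b, and one that lies within the 19 shared bases cannot separate Mir101a from Mir101c, so the counts of both genes are uncertain. The whole 3p sequence of miR-101b was found in no GENCODE transcript of another gene, and that of miR-101a only in Mir101a and in the noncoding RNA that overlaps it.

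The genes lie apart in the genome. Mir101a (ENSMUSG00000065451.1) is on the minus strand of mm10 chromosome 4 from 101346945 to 101347027, within an exon of the lincRNA E130102H24Rik, on the same strand, which runs from 101346531 to 101356735. Mir101b (ENSMUSG00000065556.1) is on the plus strand of chromosome 19 from 29135279 to 29135375, in an intron of Rcl1, a gene for a protein of ribosomal RNA processing, on the same strand, which runs from 29101375 to 29143929. Neither has another annotated miRNA gene within 10000 bases, so each stands outside the miRNA clusters of the genome. Mir101c is on the minus strand of chromosome 9 from 3038669 to 3038743 and had 0 counts in both libraries. A count of 0 allows up to 3 counts, or 0.703 CPM in replicate 2 and 0.547 CPM in replicate 1, for reads that match that place alone.

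Mir101b had more counts than Mir101a in both libraries. Reads within the 19 bases shared with Mir101c can be lost from Mir101a, while Mir101b shares only 14 bases with Mir101c. The size of this loss was not measured, so the order holds for the counts only. For Mir101b the counts were 2849 in replicate 2 and 1892 in replicate 1. These were 668 CPM (95% Poisson interval 643 to 693) in replicate 2 and 345 CPM (330 to 361) in replicate 1. Mir101a had 967 counts in replicate 2 and 247 in replicate 1, or 227 CPM (213 to 241) in replicate 2 and 45.1 CPM (39.6 to 51.0) in replicate 1. Both genes were thus higher in replicate 2, and the higher Mir101a library stayed below the lower Mir101b library. The means were 506 ± 228 CPM for Mir101b and 136 ± 128 CPM for Mir101a (SD, n = 2), and the SD of Mir101a was nearly as large as its mean. Together the pair reached 894 CPM in replicate 2 and 390 CPM in replicate 1, which is 0.0894% (95% Clopper-Pearson interval 0.0866 to 0.0923) and 0.0390% (0.0374 to 0.0407) of the counts in miRNA genes. The intervals cover counting error of reads only and leave out the spread between libraries. PCR can copy 1 molecule many times, so they may be too narrow even for the counting of molecules.

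**Figure D1:**
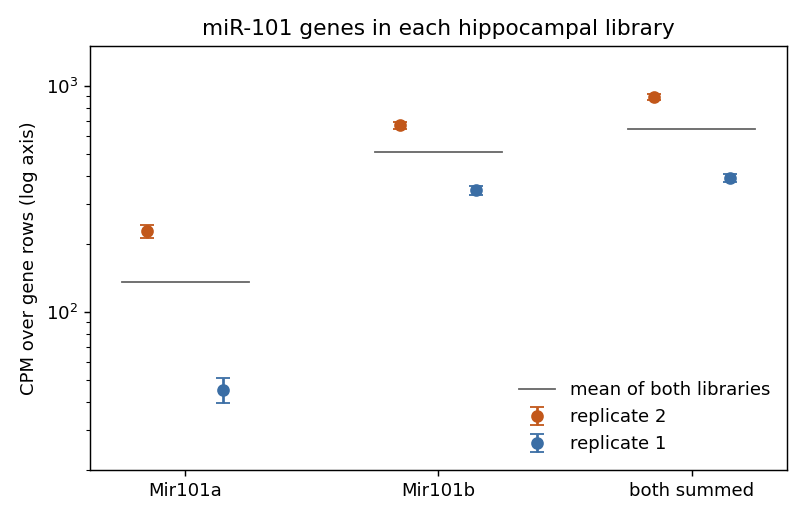
CPM over gene rows on a log axis for Mir101a, Mir101b and their sum, as a point per library with its 95% Poisson interval and a line at the mean. Every replicate 2 point lies above its replicate 1 point, and the gap is widest for Mir101a, at 227 against 45.1 CPM.

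In the order of all genes by count, Mir101b stood at rank 127 in replicate 2 and at rank 150 in replicate 1. Mir101a stood at rank 180 in replicate 2 and at rank 242 in replicate 1. By mean CPM, 143 detected genes, or 33.0%, lay above Mir101b and 206, or 47.6%, above Mir101a, against a median of 118 CPM over the detected genes. Mir101a thus sat near the middle of the detected range and Mir101b in its upper part. Of the detected genes, 89 have 19 or more bases in a row in common with some distant miRNA gene, as both members do, and their median level of 136 CPM was that of Mir101a itself. The other 344 had a median of 94.5 CPM.

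All reads of both genes fell on their own strand. The count read as made without strand was identical to the main strand count for each gene in each library, and the other strand held 0 counts for either gene in either library. The counts are per hairpin, so the 3p and 5p arms were not separated.

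The balance between the genes differed between the libraries. Mir101b supplied 74.7% (95% Clopper-Pearson interval 73.2 to 76.0) of the pair's 3816 counts in replicate 2 and 88.5% (87.0 to 89.8) of its 2139 counts in replicate 1, a mean of 81.6% ± 9.75 (SD, n = 2). This is 2.95 counts (2.74 to 3.17) of Mir101b for each count of Mir101a in replicate 2 and 7.66 (6.71 to 8.78) in replicate 1. The intervals describe counting error in each library alone and make no test of the difference, and the measure does not depend on how the libraries are scaled. The share of reads that match both members, or Mir101a and Mir101c, was not measured, so its part in this balance was not tested.

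**Figure D2:**
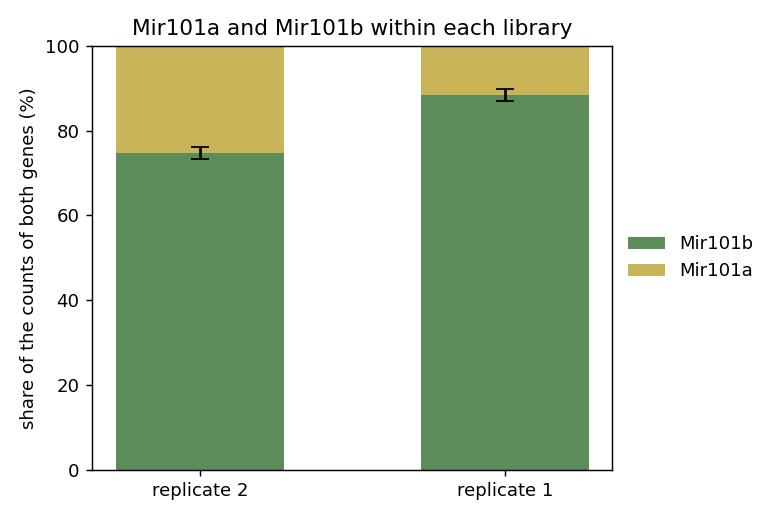
Share in percent of the counts of both genes that fell on Mir101b (lower part) and Mir101a (upper part) in each library, with the 95% Clopper-Pearson interval of the Mir101b share. Mir101b holds 74.7% in replicate 2 and 88.5% in replicate 1.

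Mir101a was 5.03-fold (95% interval from the counts 4.37 to 5.81) higher in replicate 2 than in replicate 1, and Mir101b 1.93-fold (1.82 to 2.05). Both members were thus higher by at least 1.5-fold, as were 39.5% of the 433 detected genes, while 23.6% were lower by as much. Mir101a also passed 4-fold, which 10.4% of the detected genes did in that direction and 5.08% in the other. On the scale of log2 (CPM + 1), the ratio of replicate 2 over replicate 1 was 2.30 for Mir101a, with 28 detected genes above it, and 0.95 for Mir101b, with 119 above it. The median over the detected genes was 0.27, with quartiles at -0.52 and 1.05, so Mir101b lay inside and Mir101a outside the middle of the distribution. The summed pair was 2.29-fold (2.17 to 2.42) higher in replicate 2. These libraries were scaled by their totals. With edgeR TMM factors the ratios were 4.09-fold for Mir101a and 1.57-fold for Mir101b. By these factors 31.6% of the 433 detected genes were higher in replicate 2 by at least 1.5-fold and 30.3% lower. Of the genes past 1.5-fold, 51.1% were then higher in replicate 2, against 62.6% with library totals.

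**Figure D3:**
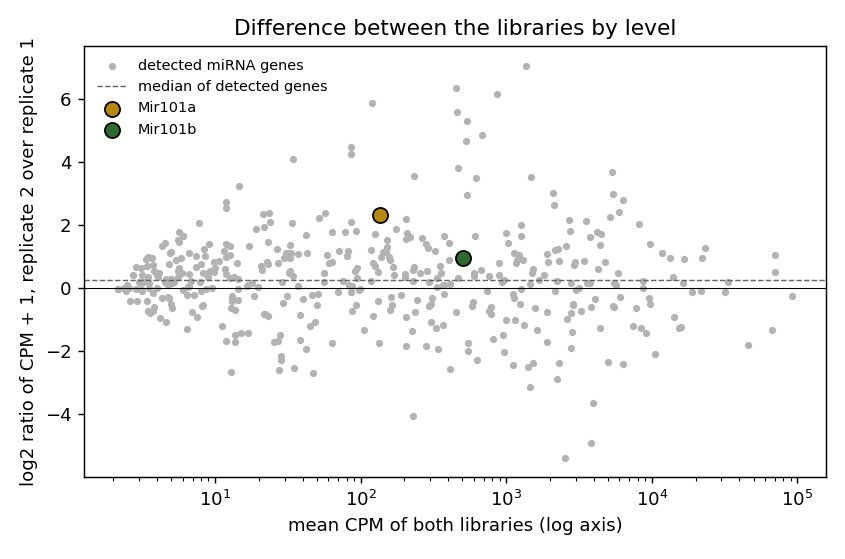
Log2 ratio of CPM + 1, replicate 2 over replicate 1, against the mean CPM of both libraries on a log axis, for the 433 detected miRNA genes, with both members as large points and the median of 0.27 dashed. Mir101a at 2.30 has 28 detected genes above it, and Mir101b at 0.95 has 119.

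Genes that share a number and differ by a letter, which are mostly paralogues as Mir101a and Mir101b are, gave a scale for this gap. The log2 ratios of Mir101a and Mir101b were 1.36 apart. In 26 other groups of this kind with at least 2 detected members, the median difference between their members ran from 0.19 to 2.28 with a median of 1.02, and 8 of the 26 lay above the miR-101 pair. With pairs on different chromosomes only, 21 groups were left, their median was 1.12 and the same number, 8, lay above. The mean CPM of Mir101b was 3.73 times that of Mir101a, a log2 difference in level of 1.90, against a median of 2.54 over the 26 groups, 17 of which lay above the pair. The distance between the members, in level and in ratio, was thus within the range of the other groups. That range is a rough scale, because several groups hold numbered copies whose counts are uncertain. The largest log2 difference in level, 8.89, was that of the Mir26 group, which holds such copies.

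**Figure D4:**
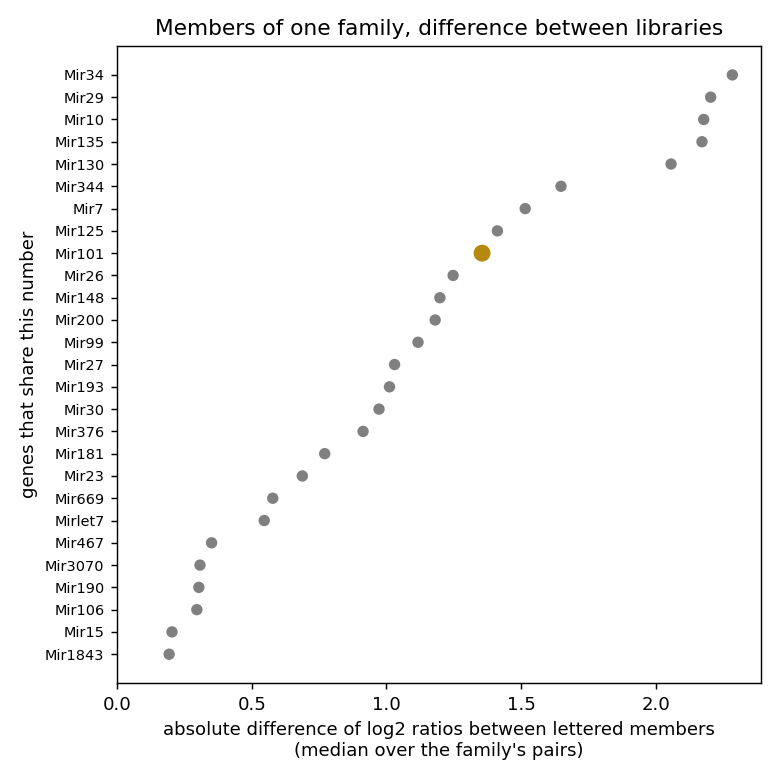
Absolute difference of the log2 ratios of lettered members, as the median over each group's pairs, for miR-101 (large point) and 26 other groups. The miR-101 pair, at 1.36, lies below 8 of the groups.

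No other mature miRNA of the RefSeq table had the full seed of a 3p or 5p product of Mir101a or Mir101b among 1738 searched. Sharing of bases 2 to 7 alone was found for miR-144-3p with miR-101a-3p and for miR-582-5p with miR-101b-3p, shown with bases 2 to 8 in capitals. Each differs from the member's seed at base 8.
miR-144-3p: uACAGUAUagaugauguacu
miR-582-5p: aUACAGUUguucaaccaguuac

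Mir144, a gene of red blood cell precursors, had 37 counts in replicate 2 and 136 in replicate 1, or 8.67 CPM in replicate 2 and 24.8 CPM in replicate 1. Mir582 had 44 counts in replicate 2 and 94 in replicate 1, or 10.3 CPM in replicate 2 and 17.1 CPM in replicate 1. Both were lower in replicate 2 by at least 1.5-fold, as were 23.6% of the 433 detected genes. This direction was opposite to that of the members, and in each library both lay under Mir101a.

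The genes nearest in level in both libraries, by Euclidean distance of log2(CPM + 1) over the 2 libraries, were not the other member. For Mir101a they were Mir7-1 at a distance of 0.44 (193 CPM in replicate 2 and 58.6 in replicate 1), Mir542 at 0.65, Mir25 at 0.77, Mir30c-1 at 0.77 and Mir9-3 at 0.78. For Mir101b they were Mir339 at 0.44 (523 CPM in replicate 2 and 415 in replicate 1), Mirlet7a-1 at 0.44, Mir188 at 0.53, Mir125b-2 at 0.53 and Mir700 at 0.60. The members were 3.30 from each other, with 129 genes nearer to Mir101a and 135 nearer to Mir101b. With 2 libraries the distance says only that levels were close, and several of these genes, such as Mir7-1, Mir9-3 and Mirlet7a-1, have copies that leave their own counts uncertain.

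Other miRNAs known as repressors of Ezh2 showed both directions. Of 15 listed genes 13 were detected, of which 5 were higher in replicate 2 by at least 1.5-fold and 5 lower, and their median log2 ratio was 0.16. Over all detected genes 39.5% were higher and 23.6% lower by as much, and the median was 0.27. The list's share of higher genes and its median stood close to this background, while its share of lower genes was larger. Several of its lower genes are copies of each other and are not independent. The most abundant were the neuronal Mir137, at 14089 CPM in replicate 2 and 5321 CPM in replicate 1, Mir26b, within Ctdsp1, at 5837 CPM in replicate 2 and 5220 CPM in replicate 1, and the synaptic Mir138-1, at 2590 CPM in replicate 2 and 6200 CPM in replicate 1. Each stood above Mir101b in both libraries. Mir138-1 has a copy at another locus, Mir138-2, so its counts are uncertain.

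Other miRNAs known as repressors of App were mostly higher in replicate 2, as both members were. All 9 listed genes were detected, 6 higher by at least 1.5-fold and 1 lower, and their median log2 ratio was 1.73, beside 39.5% higher, 23.6% lower and a median of 0.27 over all detected genes. The most abundant were Mir17, of the Mir17-92 cluster, at 9932 CPM in replicate 2 and 782 CPM in replicate 1, Mir195a at 590 CPM in replicate 2 and 7277 CPM in replicate 1, and Mir15a at 3006 CPM in replicate 2 and 1299 CPM in replicate 1. Mir195a was the gene that was lower. Several of the 9 are neighbours in a cluster or copies of each other and are not independent. The list was chosen with earlier results of these data known, so its direction is a description only.

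Of miRNAs that rise as the brain matures after birth, a class to which miR-101 is also assigned, 15 of 17 listed genes were detected. Of these 10 were lower in replicate 2 by at least 1.5-fold and 3 higher, and the median log2 ratio was -1.26, beside 23.6% lower, 39.5% higher and a median of 0.27 over all detected genes. The most abundant were Mir128-1, at 21819 CPM in replicate 2 and 11606 CPM in replicate 1, then Mir137 and Mir26b, with the values above. Mir128-1 has a copy, Mir128-2, and its counts are uncertain. The summed level of the 17 listed genes was the higher in replicate 2, at 52928.5 CPM against 48564.4 CPM in replicate 1. Several of the 15 are copies of each other or members of the same family and are not independent. All 4 genes of the miR-29 family were lower in replicate 2, with log2 ratios between -4.90 and -1.66, and they are named here because of those values. Mir101a and Mir101b, at 2.30 and 0.95, thus lay on the other side of 0 from most of the list.

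**Figure D5:**
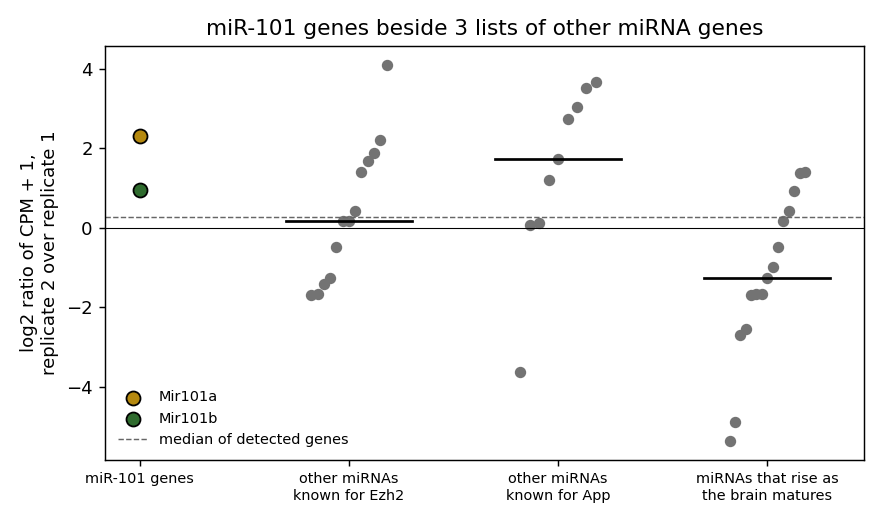
Log2 ratio of CPM + 1, replicate 2 over replicate 1, of Mir101a and Mir101b and of the detected genes of 3 lists, with each list's median as a bar and the median of all detected genes dashed. The list medians are 0.16, 1.73 and -1.26.

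Marker genes of other cells differed between the libraries in the same comparison. For scale, 39.5% of all detected genes were higher in replicate 2 by at least 1.5-fold and 23.6% were lower by as much. By at least 4-fold, 10.4% were higher. No marker list was tested against these shares. Epithelial markers summed to 6267 CPM in replicate 2 and 111 CPM in replicate 1, with 6 of 7 detected and all 6 at least 4-fold higher in replicate 2. Oligodendrocyte markers summed to 939 CPM in replicate 2 and 6503 CPM in replicate 1 (3 of 3 detected). Most of the replicate 1 sum was Mir219a-2, at 119 CPM in replicate 2 and 4960 CPM in replicate 1, while Mir219a-1 went the other way, at 54.8 CPM in replicate 2 and 12.4 CPM in replicate 1. Mir338 was at 765 CPM in replicate 2 and 1530 CPM in replicate 1, so 2 of the 3 were lower by at least 1.5-fold and 1 was higher. Mir219a-1 and Mir219a-2 are copies, so their counts are uncertain. Summed levels were lower in replicate 2 also for endothelial and mural markers, at 12895 CPM in replicate 2 and 21958 CPM in replicate 1 (3 of 3, with 1 past 1.5-fold, which was lower). Choroid plexus and ciliated markers summed to 2303 CPM in replicate 2 and 983 CPM in replicate 1 (4 of 5), of which only Mir449a passed 1.5-fold, at 1139 CPM in replicate 2 and 101.1 CPM in replicate 1. Microglia and immune markers summed to 1099 CPM in replicate 2 and 1986 CPM in replicate 1 (5 of 5), but 3 of the 5 were higher in replicate 2 by at least 1.5-fold and 1 was lower, Mir150, at 397 CPM in replicate 2 and 1215 CPM in replicate 1. Erythroid markers summed to 65.9 CPM in replicate 2 and 88.1 CPM in replicate 1 (3 of 3, with 1 higher by at least 1.5-fold and 2 lower). Neuronal markers summed to 49150 CPM in replicate 2 and 42836 CPM in replicate 1 (8 of 11, with 5 higher by at least 1.5-fold and 2 lower), and no marker of any list was at 0 in both libraries. The part of these cells in the differences of Mir101a and Mir101b was not tested, and in bulk tissue fewer cells of a type and less RNA per cell cannot be told apart.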

How the data were processed

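Each library has 1 deposited table, without a header, of raw counts of reads for every miRNA gene. Per the deposited text beside each table, reads were placed on mm10 and counted over GENCODE M21; aligner, trimming and counting settings: not given in the sources used here. Column 3 holds most reads at miRNA genes and was read as the main strand, column 2 as the count without strand. Column 3 held 4266963 counts in replicate 2 and 5481053 in replicate 1. The other strand held 253077 in replicate 2 and 419060 in replicate 1. Rows that name no gene stayed out of library sizes: multimapping reads (46.4% of reads in replicate 2 and 41.9% in replicate 1), unmapped reads (17.2% in replicate 2 and 17.1% in replicate 1) and reads outside miRNA genes (5.17% in replicate 2 and 5.56% in replicate 1). CAST/EiJ reads that carry a difference from mm10 may be placed less often.

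CPM were computed over the 2202 gene rows, and log2 ratios with 1 CPM added. Fold intervals come from the exact binomial split of the counts. Levels carry exact Poisson and shares exact Clopper-Pearson 95% intervals (scipy 1.17.1). The fold step was tested on simulated Poisson counts, which hold counting error only, so that test says nothing of the spread between libraries. TMM factors came from edgeR 4.0.16 and size factors from DESeq2 1.42.0, over the detected genes. With 1 group there is no test between conditions.

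The members and lists were chosen with earlier results of these data known. The genes named are the members, the 5 nearest detected genes to each, genes whose product shares bases 2 to 7 or 2 to 8 of a member's seed, and the 3 most abundant detected genes of each of the 3 lists. The miR-29 family and single marker genes fall outside this rule and were named after their values were seen. Sequences are from RefSeq (GRCm38.p6), where both members matched, and GENCODE M21. The rest of the genome was not searched for copies. Alternatives tried were another strand column, other scalings, pseudocounts, detection minimums and each library alone.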

Additional observations from a re-analysis of the deposited data

How the results depend on the processing

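Both members stayed higher in replicate 2 under every scaling, pseudocount and strand column tried. The log2 ratios of Mir101a, Mir101b and their sum were 2.01, 0.65 and 0.90 with edgeR TMM factors, 2.03, 0.68 and 0.92 with DESeq2 size factors, and 2.08, 0.76 and 1.01 per 1000000 of all reads, because these scalings lower the value of replicate 2 relative to replicate 1. TMM and DESeq2 factors shifted the detected genes' median by -0.30 and -0.27 (log2), and 51.1% and 52.2% of the genes past 1.5-fold were then higher in replicate 2, against 62.6%. Per 1000000 of all reads, Mir101a, Mir101b and their sum were at 70.7, 208 and 279 in replicate 2 and at 15.96, 122 and 138 in replicate 1. In the column without strand, which leaves out overlapping genes, Mir101b and the sum were at 709.7 and 951 CPM in replicate 2 and at 374 and 423 CPM in replicate 1. There Mir101a ranked 169 in replicate 2 and 223 in replicate 1, and Mir101b 117 in replicate 2 and 137 in replicate 1. With all 651 genes that had a count in both libraries, 277 (42.5%) were higher in replicate 2 by at least 1.5-fold and 172 (26.4%) lower. Among the 433 detected genes these shares were 39.5% and 23.6%, so the counts rose more than the shares. With 1 library left out, the level was between 45.1 and 227 CPM for Mir101a, 345 and 668 for Mir101b and 390 and 894 for their sum, and the Mir101b share between 74.7% and 88.5%. Each library alone cannot move a mean past its SD with 2 libraries, and the Mir101b share without strand rests on identical counts. Apart from these, 29 alternative values stayed within the error or limit set for them and 25 did not. Some of these outcomes were fixed in advance too. Dividing by all reads had to lower every CPM, and the pseudocounts were too small to move the ratios. The tally thus describes the settings chosen and is no measure of robustness. No paired analysis was possible because there is 1 group. Of the 2 members, depth limits Mir101a more, with 247 counts in replicate 1.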
